A study of Homo sapiens with 6 samples.

Results

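The small nucleolar RNA host genes examined here are the long non-coding RNA (lncRNA) genes whose symbol is SNHG followed by a number, together with GAS5, ZFAS1, DANCR and EPB41L4A-AS1. The choice was made by symbol, and it found 32 of the 64449 annotated genes. All 32 are annotated as lncRNA genes, they lie on 15 chromosomes, and their lengths run from 540 to 441754 bp with a median of 8587 bp. The set was drawn up with earlier results of these data known, and SNHG3 with RCC1 was selected on the width of its Ara-C peak, so that this width is a description here. HL-60 cells, an established line of human promyelocytic leukaemia, received water (mock), the anthracycline daunorubicin (DNR, 1 µM), which intercalates into DNA, or the nucleoside analogue cytarabine (Ara-C, 2 µM), and were fixed after 2 h. Chromatin carrying proteins conjugated to SUMO-2/3 was immunoprecipitated and sequenced (ChIP-seq), and 3 experiments were pooled into 1 library per condition. The study asked where SUMO-2/3-conjugated proteins sit on chromatin and whether the drugs change this.

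Each condition is thus represented by 1 peak list and no difference between conditions has a replicate check. The lists hold 44265 mock, 72279 Ara-C and 33355 DNR peaks, each with a position and no height, which leaves width as the one gauge of strength. The depth of the libraries is unknown from the lists, and depth and treatment cannot be told apart. The smallest peak the calling allows at these genes is 150 bp. Where no peak is listed, the signal did not pass the threshold, and SUMO-2/3 may still have been present. Of the genes for proteins of primary granules that mark promyelocytic cells, MPO, which encodes myeloperoxidase, had 4 mock peaks within 2 kb upstream to 1 kb downstream of its 5′ end, the widest of 650 bp, and 2 Ara-C peaks, the widest of 750 bp. Peaks were also present there at AZU1 in mock and under Ara-C and at ELANE under DNR, and PRTN3 had none. Peaks do not measure expression, so the identity of the cells rests on the labels.

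Small nucleolar RNAs (snoRNAs) are cut from the introns of longer transcripts. Box C/D snoRNAs guide methylation of ribosomal RNA and box H/ACA snoRNAs guide its pseudouridylation, and the related small Cajal body RNAs do the same for spliceosomal RNAs. Many host transcripts encode no protein, start with a pyrimidine tract like ribosomal protein messages, are made at high rates in growing cells and are removed by nonsense-mediated decay once spliced. SUMO-2/3 is a small protein attached to lysines of transcription factors, cofactors and chromatin proteins. In RefSeq, 31 of the 32 genes contain at least 1 snoRNA or small Cajal body RNA, and 17 contain exactly 1. SNHG14, the long host of the SNORD115 and SNORD116 clusters, contains 84, GAS5 contains 11 and SNHG1 contains 9. SNHG27 contains none in that table.

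The sequences shown here lie under peaks of both the mock and the Ara-C list near the 5′ ends of host genes, since the positional results turn on them. Each line gives the bases common to the overlapping peaks, in hg19 and read 5′ to 3′ on the strand of the gene. Capitals mark matches to 1 of 6 motifs searched on both strands: CACGTG (E-box), CCGGAAG (ETS), GCATGCGC (NRF1), CCAAT (NF-Y), GGGCGG (Sp1) and the core consensus of CTCF. Each motif was searched separately and overlapping matches were allowed. For SNHG17 the bases shown are common to all 3 lists.
SNHG17, 48 bp upstream to 101 bp downstream of the 5′ end (chr20:37063951-37064100, minus strand): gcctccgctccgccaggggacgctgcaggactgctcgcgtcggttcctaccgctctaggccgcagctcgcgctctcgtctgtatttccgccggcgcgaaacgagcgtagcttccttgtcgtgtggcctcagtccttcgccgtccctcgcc
SNHG20, 197 bp upstream to 2 bp downstream (chr17:75082601-75082800, plus strand): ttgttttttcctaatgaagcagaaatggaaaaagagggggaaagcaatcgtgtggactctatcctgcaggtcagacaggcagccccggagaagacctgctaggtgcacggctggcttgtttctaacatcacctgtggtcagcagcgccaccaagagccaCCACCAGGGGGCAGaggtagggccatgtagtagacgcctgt
EPB41L4A-AS1, 28 to 277 bp downstream (chr5:111496251-111496500, plus strand): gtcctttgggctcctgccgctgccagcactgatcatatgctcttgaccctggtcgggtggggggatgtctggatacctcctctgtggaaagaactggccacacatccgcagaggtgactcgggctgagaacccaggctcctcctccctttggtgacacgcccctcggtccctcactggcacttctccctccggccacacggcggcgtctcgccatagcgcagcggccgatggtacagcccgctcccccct
SNHG11, 165 to 464 bp downstream (chr20:37075151-37075450, plus strand): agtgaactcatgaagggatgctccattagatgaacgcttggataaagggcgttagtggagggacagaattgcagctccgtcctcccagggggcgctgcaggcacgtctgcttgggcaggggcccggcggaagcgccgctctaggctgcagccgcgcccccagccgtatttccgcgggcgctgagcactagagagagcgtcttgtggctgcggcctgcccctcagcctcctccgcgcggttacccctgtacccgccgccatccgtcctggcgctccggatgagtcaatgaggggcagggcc
SNHG5, 150 to 349 bp downstream (chr6:86388301-86388500, minus strand): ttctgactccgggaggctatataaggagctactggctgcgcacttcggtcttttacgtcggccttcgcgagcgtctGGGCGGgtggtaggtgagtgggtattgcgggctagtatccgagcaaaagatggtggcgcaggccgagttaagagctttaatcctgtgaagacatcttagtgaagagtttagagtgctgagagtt
SNHG25, 454 to 703 bp downstream (chr17:62223751-62224000, plus strand): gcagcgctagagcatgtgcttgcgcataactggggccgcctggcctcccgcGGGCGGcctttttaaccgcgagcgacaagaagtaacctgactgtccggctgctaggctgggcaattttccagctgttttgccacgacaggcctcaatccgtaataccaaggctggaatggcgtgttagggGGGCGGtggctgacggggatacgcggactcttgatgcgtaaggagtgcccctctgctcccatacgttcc
The stretches of SNHG17, EPB41L4A-AS1 and SNHG11 hold none of the 6 motifs, that of SNHG5 holds 1 GGGCGG and that of SNHG25 holds 2. The SNHG20 stretch holds a CTCF core match in capitals close to the 5′ end. A match is a string of letters and does not show that the factor was bound.

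The first comparison asked how often the 5′ end of a host gene carried a SUMO-2/3 peak. The start window ran from 2 kb upstream to 1 kb downstream of the gene 5′ end, and 1 shared base was enough. In mock, 12 of the 32 host genes had a start-window peak, or 37.5% (95% Wilson interval 22.9 to 54.7), against 11.5% of 18670 other lncRNA genes. Under Ara-C, 12 host genes had one, again 37.5%, against 15.0% of other lncRNA genes. Under DNR, SNHG17 was the single host gene with one, or 3.12% (0.554 to 15.7), against 5.53% of other lncRNA genes. With the 5′ ends of all annotated transcripts, 4 host genes had a DNR peak, or 12.5% (4.97 to 28.1), against 6.75%, so the direction of the DNR difference depends on the 5′ end used. That setting searches 1 window per annotated start, with 111 starts at SNHG14 and 61 at SNHG17, and the shares were not adjusted for this. In mock and under Ara-C the lower bound of the host genes lay above the share of other lncRNA genes, and under DNR the interval covered it. All intervals here cover counting error only.

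Protein-coding genes came closer to the host genes in mock and under Ara-C, with start-window peaks at 21.8% and 26.4%. Under DNR they stood at 6.46%, farther from the host genes than other lncRNA genes did. The 542 protein-coding genes that contain a snoRNA had start-window peaks at 25.5%, 32.8% and 4.80%, and these shares lie inside the intervals of the 32 host genes. Among other lncRNA genes, 45 contain a snoRNA in RefSeq, and 15.6% of them (7.75 to 28.8) had a peak in mock and as many under Ara-C.

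**Figure D1:**
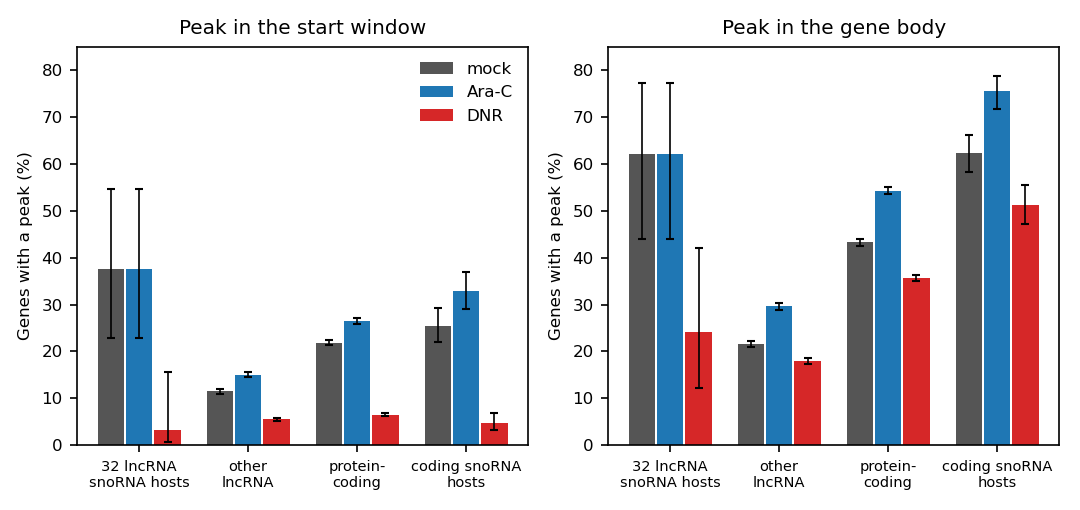
Percentage of genes with a SUMO-2/3 peak in the start window (left) and in the gene body (right) for the 32 host genes, other lncRNA genes, protein-coding genes and protein-coding snoRNA hosts, with 1 bar per peak list and 95% Wilson intervals. In the start window the host genes stand at 37.5% in mock and under Ara-C and at 3.12% under DNR, and the intervals of the first pair lie above the bars of other lncRNA genes.

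Over the 3 lists, 17 of 32 host genes had a start-window peak in at least 1, or 53.1% (36.4 to 69.1), against 24.0% of other lncRNA genes. SNHG17, host of SNORA71 genes, was the only host gene with one in all 3 lists. GAS5, EPB41L4A-AS1, SNHG5, SNHG25, SNHG20 and SNHG11 had one in mock and under Ara-C. SNHG8, SNHG26, SNHG6, SNHG29 and ZFAS1 had one in mock alone, and DANCR, SNHG7, SNHG1, SNHG10 and SNHG16 under Ara-C alone. Of the host genes, 3.12% thus had a peak in all 3 lists, 18.8% in mock and under Ara-C, 15.6% in mock alone and 15.6% under Ara-C alone, against 0.878%, 5.00%, 5.10% and 8.36% of other lncRNA genes. The other 15 had none, namely SNHG3, SNHG12, SNHG28, SNHG31, SNHG27, SNHG18, SNHG4, SNHG32, SNHG15, SNHG14, SNHG21, SNHG9, SNHG19, SNHG30 and SNHG22. Of these 15, 10 had a peak further along the gene, and SNHG27, SNHG18, SNHG9, SNHG19 and SNHG30 had none in any list.

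The peaks of SNHG17 were centred on its 5′ end. The mock peak was 350 bp wide, from 198 bp upstream to 151 bp downstream. Under Ara-C the peak was 550 bp wide and reached from 248 bp upstream to 301 bp downstream, so it contained the mock peak. Under DNR a peak of 150 bp was called at the same place, from 48 bp upstream to 101 bp downstream, which is the smallest width the calling allows. SNHG17 was thus widest under Ara-C and narrowest under DNR.

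SNHG25, a host gene of 540 bp that contains SNORD104, had the widest start-window peaks of the set. The mock peak was 700 bp wide, from 454 to 1153 bp downstream, and ranked 59 by width among all mock peaks. Ara-C gave 2 peaks over the same stretch, of 450 bp from 254 to 703 bp and of 800 bp from 854 to 1653 bp, the latter ranking 41 in its list. These peaks lie over and past the 3′ end of the short gene, and the wider one reaches an annotated transcript of TEX2. No DNR peak was found in the start window of SNHG25.

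SNHG20 contains SCARNA16, a small Cajal body RNA. Its peaks had the same edges in mock and under Ara-C, 200 bp from 197 bp upstream to 2 bp downstream, over the CTCF core match printed above. EPB41L4A-AS1 contains SNORA13, a guide of the H/ACA class. Its mock peak was 300 bp wide, from 22 bp upstream to 277 bp downstream, and its Ara-C peak was 400 bp wide, from 28 to 427 bp downstream. SNHG11 contains SNORA60, and its peaks began at the same base, 165 bp downstream, with widths of 400 bp in mock and 300 bp under Ara-C. At these 3 genes the position was held from mock to Ara-C to within 150 bp at each edge.

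SNHG5, host of SNORD50A and SNORD50B, had a pair of peaks on either side of its 5′ end in both lists. The downstream peak was 200 bp wide in mock, from 150 to 349 bp, and 450 bp under Ara-C, from 100 to 549 bp. The upstream peak was 150 bp wide in mock and 250 bp under Ara-C, and in each case the Ara-C peak contained the mock peak. A protein-coding locus with no symbol in the annotation (ENSG00000271793) starts on the same strand in this window, so these peaks belong to the start windows of both genes.

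GAS5 (chromosome 1, 173827697 to 173838020, minus strand), a host of box C/D snoRNAs whose transcript accumulates in growth-arrested cells, had peaks in both lists but none at the same bases. The mock peak was 200 bp wide, from 420 to 619 bp downstream. The Ara-C peaks were 200 bp wide, from 30 bp upstream to 169 bp downstream, and 250 bp wide, from 920 to 1169 bp downstream. GAS5 was the only host gene with peaks in the start window in both lists and no shared base. ZBTB37, a zinc finger gene on the opposite strand, shares this window, so that the peaks cannot be assigned to one gene.

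Other host genes had start-window peaks in one list alone. SNHG29 had a mock peak of 350 bp from 70 to 419 bp downstream, and SNHG8, host of SNORA24, one of 300 bp from 107 bp upstream to 192 bp downstream. ZFAS1 (chromosome 20, 47894715 to 47916137, plus strand), a transcript antisense to the start of ZNFX1, had one of 200 bp from 386 to 585 bp downstream. That peak also lies in the start window of ZNFX1. DANCR (chromosome 4, 53578492 to 53589790, plus strand), a lncRNA that opposes differentiation in several progenitor cells and contains SNORA26, carried 200 bp of Ara-C signal from 559 to 758 bp downstream. SNHG7 had 3 Ara-C peaks in its window and none in mock. The upstream ones were few, with SNHG1 and SNHG16 the only genes whose peaks all lay more than 500 bp upstream.

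**Figure D2:**
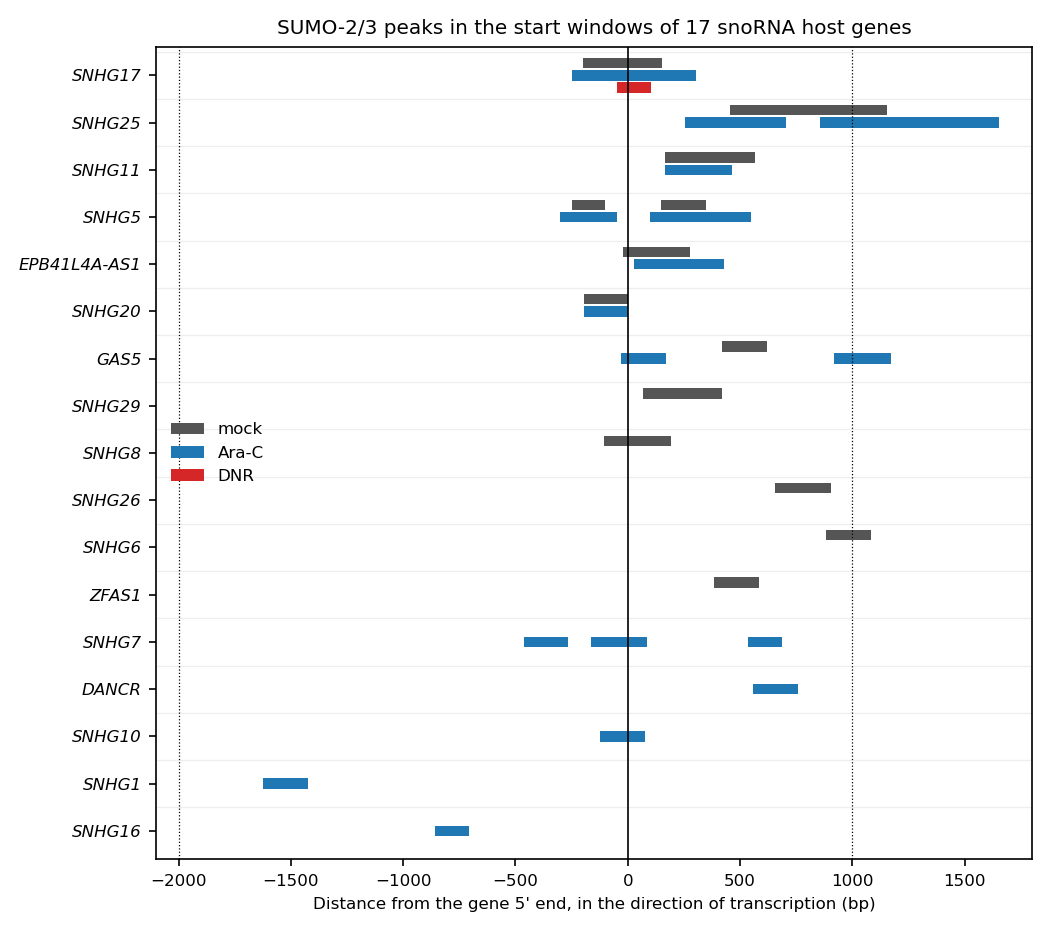
Position of every SUMO-2/3 peak in the start windows of the 17 host genes with one, as bars from first to last base against distance from the gene 5′ end in bp, for mock, Ara-C and DNR. The dotted lines mark the window from 2000 bp upstream to 1000 bp downstream, and most bars touch the stretch between 300 bp upstream and 600 bp downstream, with the single DNR bar at SNHG17.

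Most start-window peaks of the host genes lay near the 5′ end, on either side of it. Of 13 mock peaks in the start windows, 11 touched the stretch from 300 bp upstream to 600 bp downstream, and 1 lay wholly upstream. Of 17 Ara-C peaks, 13 touched that stretch and 4 lay wholly upstream. In the first 500 bp of the gene, 31.2% of host genes had a mock peak and 28.1% an Ara-C peak, against 4.75% and 6.07% of other lncRNA genes. Protein-coding snoRNA hosts stood at 12.7% and 17.9%, and protein-coding genes at 10.3% and 12.5%. In the bin of 500 bp before the 5′ end the host genes stood at 15.6% and 18.8%, against 4.58% and 5.89% of other lncRNA genes. Values there were closer at protein-coding snoRNA hosts, with 12.5% and 14.9%, and at protein-coding genes, with 11.7% and 13.7%. Limiting the window to the 2 kb upstream lowered the mock share to 15.6% (6.86 to 31.8) against 8.09%, so that the interval covered the value of other lncRNA genes, and extending it to 5 kb downstream, a setting added after the data had been seen, raised it to 62.5% against 17.7%. That longer window raised the Ara-C share to 71.9% against 24.1%, and the 5′ ends of all annotated transcripts raised it to 56.2% against 17.3%.

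**Figure D3:**
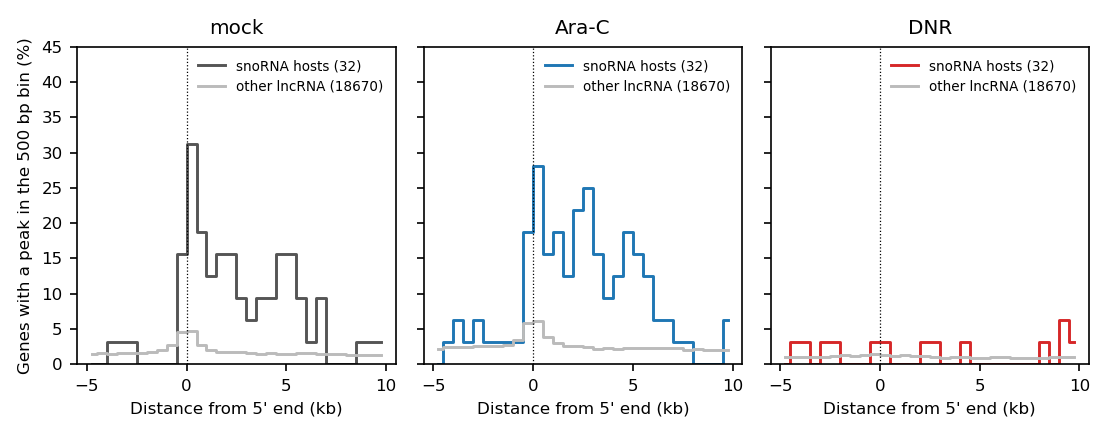
Percentage of genes with a peak in each 500 bp bin from 5 kb upstream to 10 kb downstream of the 5′ end, for the 32 host genes (coloured) and 18670 other lncRNA genes (grey), for each list. The host genes peak in the first 500 bp downstream, at 31.2% in mock and 28.1% under Ara-C, and stay above the grey line for several kb, while each DNR step stands for 1 or 2 genes.

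The second comparison asked whether peaks at the host genes were found again under each drug. Of the 12 host genes with a mock start-window peak, 7 had one under Ara-C, or 58.3% (32 to 80.7), against 51.3% of other lncRNA genes with a mock peak. Counted as peaks that share at least 1 base, 7 of 13 were found again, or 53.8% (29.1 to 76.8), against 32.9%. Both intervals include the value of other lncRNA genes. With at least 50% of the mock peak covered, the Ara-C share of peaks stayed at 53.8% (29.1 to 76.8) against 27.9%, which lies below the interval. Under DNR, SNHG17 alone remained, which is 8.33% of genes (1.49 to 35.4) against 11.8%, and 7.69% of peaks (1.37 to 33.3) against 4.03%. In a window of 500 bp on either side the share of genes was 10.0% against 7.28%, so the direction depends on the window. With peaks of at least 200 bp in both lists no host gene remained under DNR.

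Start-window peaks of host genes had a median width of 250 bp in mock (13 peaks, order-statistic interval 200 to 350) and of 250 bp under Ara-C (17 peaks, 200 to 400), against 200 bp in both lists at other lncRNA genes. A width of 300 bp or more was reached by 46.2% of mock peaks (23.2 to 70.9) and 35.3% of Ara-C peaks (17.3 to 58.7) of host genes, against 21.1% and 17.4% at other lncRNA genes. In mock the lower bound exceeded the value of other lncRNA genes, and under Ara-C it fell just below it.

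The 5′ ends of the host genes differ in sequence from those of other lncRNA genes, and the comparison was therefore repeated in classes of CpG content, a step chosen after seeing the data. A start was called CpG-rich when the 300 bp from 250 bp upstream to 50 bp downstream had at least 50% GC and an observed to expected CpG ratio of at least 0.6. This held for 22 of 32 host genes, or 68.8% (51.4 to 82.0), against 20.9% of other lncRNA genes and 54.9% of protein-coding genes. Among genes with a CpG-rich start, 27.3% of host genes (13.2 to 48.2) and 25.6% of other lncRNA genes had a mock start-window peak, and 36.4% (19.7 to 57.0) and 31.0% had an Ara-C peak. In that class, the shares differed by less than the counting interval. Among genes whose start was not CpG-rich, 6 of 10 host genes had a mock peak, or 60.0% (31.3 to 83.2), against 7.70%, and 40.0% (16.8 to 68.7) had an Ara-C peak against 10.8%. Of the 6 with a mock peak, SNHG26 and SNHG29 had CpG ratios of 0.589 and 0.565, close to the cut. GAS5 had 49.0% GC and a ratio of 0.507, and EPB41L4A-AS1, SNHG20 and SNHG11 had ratios of 0.351, 0.376 and 0.138. The shared stretches of EPB41L4A-AS1 and SNHG11 printed above had 64.8% and 66.0% GC. Other lncRNA genes of both classes had a median ratio of 0.289, and genes were not matched in CpG content within a class. The difference between the classes was not tested.

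A coding 5′ end lay within 2 kb of the 5′ end of 12 host genes. Among those, 25.0% (8.89 to 53.2) had a mock peak against 26.9% of other lncRNA genes so placed, and 33.3% (13.8 to 60.9) had an Ara-C peak against 33.2%. Among the 20 host genes farther from any coding 5′ end, 45% (25.8 to 65.8) had a mock peak against 8.12%, and 40.0% (21.9 to 61.3) had an Ara-C peak against 11.1%. The lower bounds exceeded the values of other lncRNA genes at the host genes that stand apart from coding 5′ ends, and the difference between these classes was not tested. Of 13 protein-coding genes that start in these windows or were named for them, 4 had a mock peak in their own start window, 3 an Ara-C peak and none a DNR peak, beside 21.8%, 26.4% and 6.46% of all protein-coding genes. These are the same peaks that were counted for the host genes, in a start window or a body.

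Among the 6 motifs, GCATGCGC was present in the 300 bp around the 5′ end of 5 host genes, or 15.6% (6.86 to 31.8), against 1.54% of other lncRNA genes and 3.77% of protein-coding genes. These 5 were SNHG3, SNHG12, SNHG8, SNHG27 and SNHG1. GGGCGG was present at 65.6% against 22.5% and 52.2%, and CACGTG at 15.6% against 5.41% and 8.33%. Protein-coding snoRNA hosts had GCATGCGC at 3.87%, GGGCGG at 59.4% and CACGTG at 9.04%. CCAAT was found at 37.5% against 35.4% of other lncRNA genes, and CCGGAAG at 3.12% against 4.82%. The CTCF core was found at SNHG20 alone, against 0.348% of other lncRNA genes. In the start-window peaks themselves, GGGCGG was present in 53.8% of the 13 mock peaks of host genes (29.1 to 76.8) and 47.1% of the 17 Ara-C peaks (26.2 to 69.0), against 25.2% and 23.7% of peaks at other lncRNA genes, which are not matched in width. GCATGCGC was in 0 of these mock peaks and 0 of the Ara-C peaks, against 1.17% and 1.35%. CACGTG was in 0 mock peaks and 17.6% of Ara-C peaks, against 5.75% and 5.01%. For CCAAT the shares were 38.5% and 41.2%, against 22.5% and 22.9%. Motifs were not compared within classes of CpG content. A pyrimidine start, a C followed by at least 4 pyrimidines within 10 bp of the annotated 5′ end, was present at 25.0% of host genes (13.3 to 42.1) and 32.2% of other lncRNA genes.

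Peaks inside the host genes were counted next. The gene body ran from 1 kb past the 5′ end to the 3′ end, which leaves 29 host genes because SNHG9, SNHG19 and SNHG25 are shorter than 1 kb. In mock, 18 of 29 had a body peak, or 62.1% (44 to 77.3), against 21.6% of other lncRNA genes. Under Ara-C 18 of 29 had one, against 29.6%, and under DNR 7 of 29 had one, or 24.1% (12.2 to 42.1), against 17.9%. Protein-coding snoRNA hosts, whose bodies have a median length of 77.3 kb against 9.80 kb for the host genes, had body peaks at 62.4% for mock, 75.5% for Ara-C and 51.3% for DNR. With peaks of at least 200 bp the DNR shares of host genes and other lncRNA genes were 10.3% and 9.67%. Since the bodies differ in length, genes of up to 100 kb were compared per length. Their bodies held 7.45 mock peaks, 10.3 Ara-C peaks and 2.01 DNR peaks per 100 kb at the 26 host genes, and 1.68, 2.63 and 1.23 at other lncRNA genes. Over all 29 host genes, longer ones included, the densities were 2.94, 4.46 and 1.23 per 100 kb against 1.49, 2.41 and 1.19 at other lncRNA genes and 1.33, 2.34 and 1.09 at protein-coding snoRNA hosts, so the excess over other lncRNA genes was smaller in mock and under Ara-C and was close to nil under DNR.

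Among genes of up to 100 kb, the density of body peaks was higher at host genes in both CpG classes. With a CpG-rich start, the host genes held 8.47 mock and 11 Ara-C peaks per 100 kb, against 1.78 and 2.71. Without one they held 5.32 and 8.86, against 1.66 and 2.61. The peaks were unevenly spread over the genes, with ZFAS1, SNHG22, SNHG29 and SNHG3 having the most among those of up to 100 kb. Peaks also inside an annotated protein-coding gene made up 41.9% of the mock, 48.9% of the Ara-C and 53.8% of the DNR body peaks at all host genes, against 21.6%, 22.6% and 20.6% at other lncRNA genes, and cannot be assigned to one gene. This held for every body peak of SNHG22, within MYO5B or ENSG00000266997, for every one of SNHG5 and for all but 1 of SNHG29, within LRRC75A, and for none of ZFAS1. Some ZFAS1 peaks, given below, lie in the start window of ZNFX1 and cannot be assigned to one gene either.

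**Figure D4:**
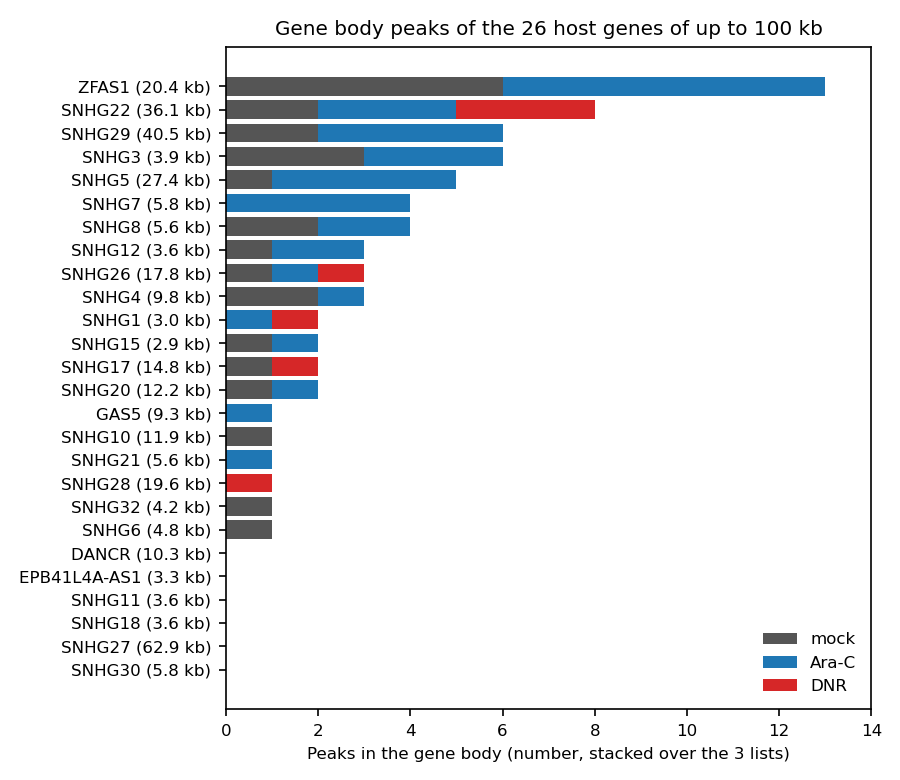
Number of SUMO-2/3 peaks in the body of each of the 26 host genes of up to 100 kb, stacked over the mock, Ara-C and DNR lists, with the length of the body in kb beside the symbol. ZFAS1 holds 6 mock and 7 Ara-C peaks and no DNR peak, and 6 genes hold no body peak.

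Of 31 body peaks in mock, 9 shared a base with a peak of another list, or 29.0% (16.1 to 46.6), against 18.0% of body peaks at other lncRNA genes. Of 47 under Ara-C, 7 did, or 14.9% (7.41 to 27.7), against 11.4%. Of 13 under DNR none did, which counting error allows to be up to 22.8%, against 10.8%. All 3 intervals include the value of other lncRNA genes. Body peaks in both mock and Ara-C lists were found at SNHG3, SNHG29, SNHG16 and ZFAS1. The DNR body peaks fell in SNHG28, SNHG26, SNHG1, SNHG14, SNHG16, SNHG22 and SNHG17.

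ZFAS1, which contains SNORD12, SNORD12B and SNORD12C, showed the most body peaks. Between 1486 and 3085 bp downstream of its 5′ end, mock had 4 peaks of 150 to 250 bp. Under Ara-C this stretch held 2 wider peaks, of 550 bp from 1686 to 2235 bp and of 650 bp from 2436 to 3085 bp. The Ara-C peaks covered all 91 bases of SNORD12B and all 90 bases of SNORD12. The 250 bp mock peak covered 81 bases of SNORD12 and no mock peak touched SNORD12B. The snoRNAs are shown with the bases inside that mock peak in capitals, in hg19.
SNORD12B, 2141 to 2231 bp downstream of the ZFAS1 5′ end (chr20:47896856-47896946, plus strand): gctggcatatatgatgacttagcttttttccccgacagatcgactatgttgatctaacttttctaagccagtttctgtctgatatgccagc
SNORD12, 2505 to 2594 bp downstream (chr20:47897220-47897309, plus strand): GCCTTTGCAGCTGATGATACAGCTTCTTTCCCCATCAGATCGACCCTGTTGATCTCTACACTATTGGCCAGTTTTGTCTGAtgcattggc
The 550 bp Ara-C peak also lies upstream of the 5′ end of ZNFX1, which encodes a helicase-like protein and is transcribed in the opposite direction. The mock peaks that begin 1486 and 1936 bp downstream of the ZFAS1 5′ end lie in the start window of ZNFX1 as well. SNORA73B in SNHG3 was the remaining snoRNA of the lifted annotation under a body peak, and that peak was an Ara-C peak.

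The widest peaks over any host gene lay at SNHG3, which shares its first exon region with RCC1. SNHG3 contains SNORA73A and SNORA73B, and RCC1 encodes the nucleotide exchange factor of the GTPase Ran. SNHG3 occupies positions 28832492 to 28837404 of chromosome 1 and RCC1 positions 28832455 to 28865812, both on the plus strand, so the 5′ end of RCC1 lies 37 bp upstream of that of SNHG3. No list had a peak in the SNHG3 start window.

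In mock, a peak of 1050 bp ran from 3709 to 4758 bp downstream of the SNHG3 5′ end and ranked 9 by width among 44265 peaks. A second peak of 200 bp followed from 4859 to 5058 bp. Under Ara-C, 1 peak of 1900 bp began at the same base, 3709 bp, and ended at 5608 bp, so that it contained both mock peaks, and it ranked 3 among 72279. Of its bases, 1204 lay in the last exon of SNHG3 and 696 past the 3′ end of the gene, within an intron of RCC1. Both wide peaks cover an annotated start of RCC1, whose exon of 28 bp begins at 28836589, 4097 bp downstream of the SNHG3 5′ end.

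Under DNR no peak was found in SNHG3. A single DNR peak of 150 bp lay far downstream in RCC1, at 28858551 to 28858700. The cluster of RCC1 starts at 28844648, 28844769 and 28844778 was covered by a mock peak of 350 bp and an Ara-C peak of 250 bp. The further SNHG3 peaks were 200 bp in mock, and 300 and 400 bp under Ara-C, and the one of 400 bp overlaps part of SNORA73B.

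**Figure D5:**
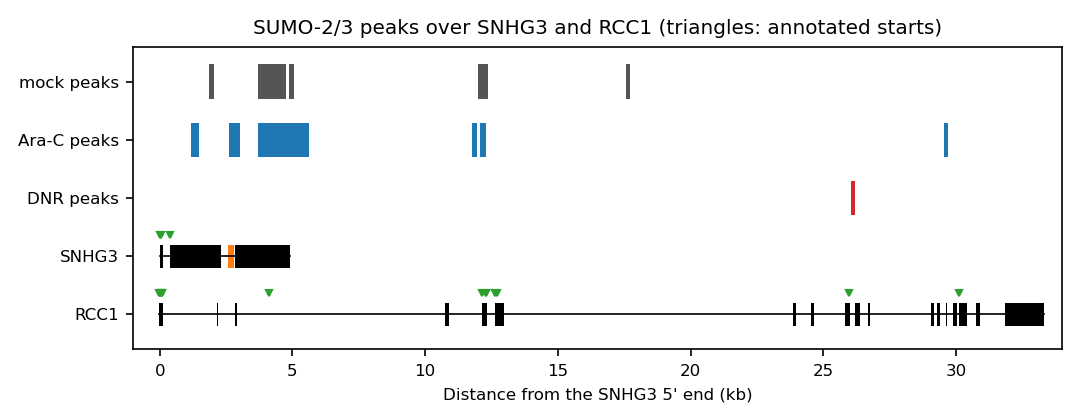
SUMO-2/3 peaks of the mock, Ara-C and DNR lists over SNHG3 and RCC1 against distance from the SNHG3 5′ end in kb, with exons as black boxes, SNORA73B in orange and annotated transcript starts as green triangles. The 1050 bp mock peak and the 1900 bp Ara-C peak begin at the same base over the last exon of SNHG3, and the single DNR peak lies far downstream in RCC1.

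The GC content of the wide peaks was 48.3% in mock and 46.5% under Ara-C. The stretches shared by mock and Ara-C in the start windows ranged from 42.3 to 68.0%. Of the 6 motifs CCAAT alone was matched, and it occurred 5 times in the mock peak and 7 times in the Ara-C peak. CCAAT is the shortest of the 6, and the number of matches expected in stretches of this length and GC content was not computed.

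The last comparison turned to genes whose proteins bind or assemble snoRNAs, in a list of 19 genes. Of these, 4 had a start-window peak in mock, 5 under Ara-C, 3 in both and none under DNR, beside the 21.8%, 26.4% and 6.46% of protein-coding genes given above. None of the 4 core proteins of box C/D particles had one. Of the 4 core proteins of H/ACA particles, NOP10 had a peak of 200 bp in mock and 650 bp under Ara-C, and GAR1 had one of 150 bp under Ara-C. Among 11 genes of assembly and trafficking, NOLC1, which encodes a nucleolar and Cajal body phosphoprotein, had 150 bp in mock and 400 bp under Ara-C. COIL, which encodes coilin of Cajal bodies, had 250 bp and 200 bp. RUVBL2, an ATPase of the assembly complex, had a mock peak of 400 bp, and SHQ1, a chaperone of dyskerin, an Ara-C peak of 250 bp. No gene of the list had a DNR start-window peak, which 6.46% of protein-coding genes had.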

How the data were processed

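SUMO-2/3 ChIP-seq was made from HL-60 cells with 1 pooled library per condition, and each of the 3 immunoprecipitated samples has a peak list. The values deposited by the authors are peak positions in hg19, with no score, fold or p-value. Per the study's methods, reads were aligned with CASAVA 1.8.2, unique reads were extended to 210 bp (mock and Ara-C) or 220 bp (DNR), counted in bins of 50 bp, scaled and corrected for input, and runs above a value of 32 that were longer than 100 bp, with gaps of at most 100 bp, were called as peaks. The same threshold in each library makes the number of peaks depend on depth, scaling and noise. The 3 inputs were not analysed here.

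Genes came from GENCODE 44 lifted to GRCh37, the assembly of hg19, on chromosomes 1 to 22, X and Y. Positions are 1-based. The members and all gene lists were chosen with earlier results of these data known. A snoRNA was assigned to a host from RefSeq (GRCh38.p14) when it lay inside the gene by coordinates, without regard to strand, because the lifted annotation lacks many small RNAs, and no position from that build is given. All 32 host genes matched by symbol. Peaks were counted by overlap of at least 1 bp and the overlaps were checked with bedtools 2.31.1, with 0 differences. The overlap step was tested on simulated data. Body densities count each peak once over the merged length of the bodies. Motif shares were computed over the 18654 other lncRNA genes with sequence. Shares carry 95% Wilson intervals. With 1 library per condition no test between conditions was made.

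Host genes were named with values when they had a start-window peak in all 3 lists, one of the 5 widest in a list, a DNR start-window peak or a mock peak found again in another list. SNHG3, GAS5, ZFAS1, DANCR, EPB41L4A-AS1, RCC1 and coding genes that share the window of a named gene were always named, and the values of other genes given singly were chosen after they had been seen. Alternatives covered the window, the 5′ end used, the width of peaks, the overlap and the class of start. Some genes and sequences are not reported here. Computations used Python 3.11.15 with numpy 2.4.6, scipy 1.17.1 and pysam 0.24.0.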

Additional observations from a re-analysis of the deposited data

How the results depend on the processing

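Of 50 values recomputed for 13 results under 12 settings, 41 stayed within the counting interval of the reported value and 9 moved beyond it. With a window of 2 kb upstream only, 15.6% of host genes had a mock peak (6.86 to 31.8) against 8.09% of other lncRNA genes, a value inside the interval. With the window extended to 5 kb downstream, a setting chosen after seeing the data, the shares were 62.5% against 17.7% in mock and 71.9% against 24.1% under Ara-C. Among genes with a CpG-rich start, a class also chosen after seeing the data, 27.3% against 25.6% in mock and 36.4% against 31.0% under Ara-C left the other lncRNA genes inside the intervals. Using the 5′ end of any transcript gave 56.2% against 17.3% under Ara-C and 12.5% against 6.75% under DNR, and a window of 500 bp on either side gave 3.12% against 2.28% under DNR, so that both turned the direction of the DNR difference. The setting with any transcript searches more windows at genes with many annotated starts. With peaks of at least 200 bp, no host gene had a DNR start-window peak (0 against 2.94%), no mock gene was found again under DNR (0 against 9.10%) nor any mock peak (0 against 4.16%, a setting added later), and 10.3% had a DNR body peak against 9.67%. Requiring 50% of the mock peak to be covered also gave 0 peaks found again under DNR, against 2.60%. Under Ara-C it gave 53.8% (29.1 to 76.8) against 27.9%, a value outside the interval. The DNR values that fell to 0 rest on the 150 bp peak of SNHG17. The libraries' depth is unknown, so a missing peak cannot be given a detection limit. No paired analysis was possible because the replicates were pooled before sequencing, with 1 library left per treatment.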
